A study of Mus musculus with 19 samples.

Results

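Regulatory CD4 T cells (Treg) that carried signal of an IL-2 reporter were compared with Treg that did not. The samples were taken by title: 4 arrays named GFP+RFP+ and 5 arrays named GFP-RFP+, which are 9 of the 19 arrays of the series. Both groups came from adult female C57Bl/6 mice of the genotype Tg IL-2-GFP x FOXP3mRFP, so that GFP reports interleukin-2 and mRFP reports Foxp3, and cells were sorted from spleen and lymph nodes. The GFP+RFP+ cells are described as IL-2-producing regulatory cells and the GFP-RFP+ cells as regulatory cells, with no treatment or stimulation named. The other 10 arrays hold cells without the Foxp3 reporter from mice of the same genotype, 5 GFP+RFP- and 5 GFP-RFP-, and entered the fit only for its estimate of spread and for the contrast between the 2 reporter differences. The cell type field calls all 4 populations conventional CD4 T cells, whereas the subtype field calls the RFP+ cells regulatory. Whether the replicates of a group are separate animals is not stated, and a p-value here rests on the spread among arrays, part of which may be technical.

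Treg are CD4 T cells that restrain immune responses and depend on the transcription factor Foxp3. They express the high-affinity IL-2 receptor and live on IL-2 made by other T cells, and Foxp3 together with NFAT and Runx1 represses the Il2 gene in them. Activated conventional CD4 cells are the main source of IL-2, so a Foxp3-expressing cell with an active Il2 reporter combines features that are usually kept apart.

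Levels are log2 processed signal relative to the 75th percentile of the same array, so that 0 is the level of a bright probe. A probe was called detected where the scanner software marked it well above background. Of 20610 genes tested, 1 gene passed an adjusted p of 0.05 (limma, Benjamini-Hochberg), which is 0.00485% of those tested. That gene was Msl3, which was higher in GFP+RFP+ cells. At an unadjusted p under 0.05 stood 1114 genes (5.41%), of which 875 were higher (4.25%) and 239 lower (1.16%) in GFP+RFP+ cells. This split went with the scaling: the median difference of all genes was 0.41 as scaled here and between -0.0486 and -0.00146 under 5 other scalings or sources of values, where 45.7% to 54.2% of the genes at an unadjusted p under 0.05 were higher.

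The arrays themselves set the precision. In GFP+RFP+ cells 32.2% ± 4.94 of probes were detected (SD, n = 4), against 29.6% ± 6.78 in GFP-RFP+ cells (SD, n = 5), a difference of 2.61 percentage points (exact permutation test, two-sided, p = 0.508, adjusted p = 0.508 over 2 tests). The 75th percentile of processed signal was 5268 ± 843 in GFP+RFP+ cells and 7021 ± 3110 in GFP-RFP+ cells (p = 0.302 in the same exact permutation test, adjusted p = 0.508). The array of GFP-RFP+ replicate 3 had the highest values of the 9 on both measures, with 39.4% of probes detected and a 75th percentile of 11715. On these measures neither gap to the other arrays of its group was unusually large, and GFP+RFP+ replicate 4 came near it at 38.0% detected. Taken over all probes instead, the 75th percentile was 127.37 for GFP-RFP+ replicate 3. It was 15.26 to 26.11 on the other arrays of that group and 27.87 to 38.13 on the GFP+RFP+ arrays. Pairs of arrays correlated over genes at r = 0.64 to 0.686 within GFP+RFP+, at 0.567 to 0.676 within GFP-RFP+, and at 0.602 to 0.691 between the groups. Among genes detected on all 9 arrays the median standard error of a difference was 0.584 on the log2 scale, and over all genes it was 1.09.

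**Figure D1:**
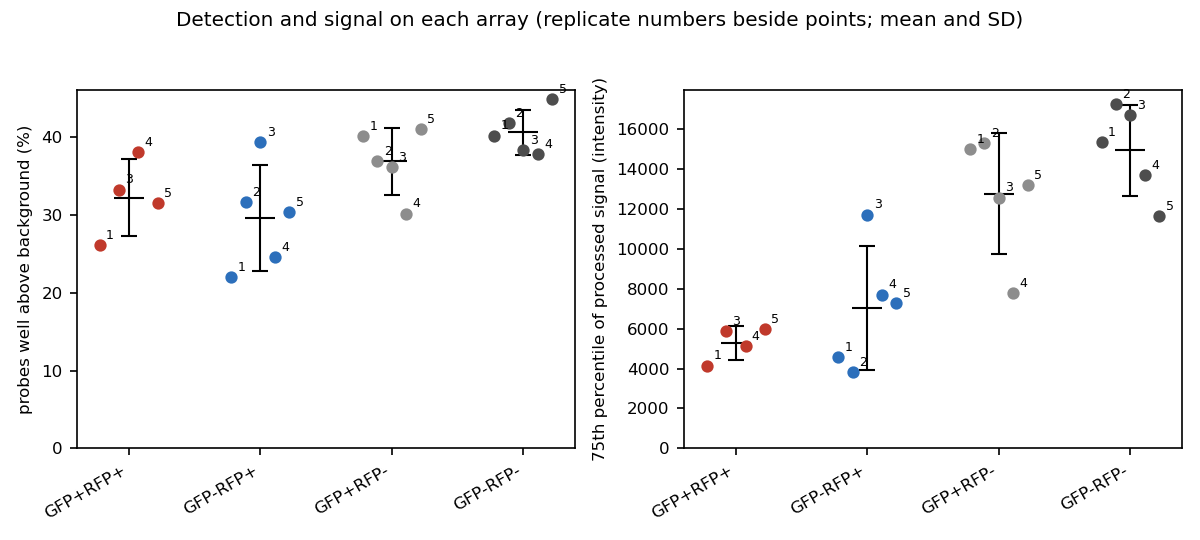
Percent of probes well above background (left) and 75th percentile of processed signal (right) on each of the 19 arrays. The percentile is taken over the 6610 probes detected on all 19 arrays. Replicate numbers stand beside the points, and bars are the mean and SD of a group. GFP+RFP+ arrays span 26.1% to 38.0% and GFP-RFP+ arrays 22.01% to 39.4% of probes, and GFP-RFP+ replicate 3 has the highest value of the 9 RFP+ arrays on both measures.

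The results turn on few probes, so the first 30 of the 60 bases of the probes for the called gene, for the 2 genes that stood nearest to it among genes measured on every RFP+ array, and for both reporter genes are given here as the array files hold them. Positions are those of the files (mm9), and the files do not say whether a probe lies in a coding or an untranslated stretch.
Msl3, chrX:165092103-165092162, minus strand: gcctgtcttgtttgagattttacagccata
Smarcd2, chr11:106124840-106124899, minus strand: ccttctttttgggtatttgcactatttggg
Rrp1, chr10:77864646-77864705, minus strand: tcccagaggatgatgtccctgaaaaagcct
Foxp3, chrX:7172301-7172360, plus strand: attatgtgttggagtgtgcctgaacagctc
Il2, chr3:37020012-37020071, minus strand: atggatagccttctgtcaaagcatcatctc

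Msl3 encodes the chromodomain subunit of the MSL complex, which acetylates histone H4. Its level was -1.02, 0.05, -0.36 and -1.60 on the GFP+RFP+ arrays, against -9.94, -10.19, -10.90, -11.33 and -11.16 on the GFP-RFP+ arrays. Signal was well above background on each of the 4 GFP+RFP+ arrays and on none of the 5 GFP-RFP+ arrays, and the groups lay far apart. The fitted difference was 9.97 ± 0.61 (SE, log2 scale, adjusted p = 1.63e-07 by limma). The dim group had only background, and with the lowest detected signal of each array as floor the level was at least 217-fold higher in GFP+RFP+ cells. That bound depends on the floor: with a common floor for all arrays the difference was 6.32, and with normexp and quantile normalization 6.65 (log2 scale). In RFP- cells Msl3 was detected on all 10 arrays, at -2.16 ± 0.72 where GFP was present and -2.22 ± 1.22 where it was absent (SD, n = 5 each), so the GFP-RFP+ arrays were the only group of the 4 without a detected signal. The difference between the 2 reporter contrasts was 9.92 ± 0.83 (SE, adjusted p = 1.26e-05), a test that shares the RFP+ arrays with the first. With slide as a block the Msl3 difference was 9.93 (adjusted p = 2.68e-06) and with scan day as a block 10.04 (adjusted p = 3.33e-06). Within slides 1, 2 and 3 it was 9.93, 9.83 and 9.65, and within scan days 1, 2 and 3 it was 10.47, 10.31 and 10.02, at adjusted p of 0.0866 to 0.357 with 1 or 2 arrays of a group in each. The gene has a single probe on the array, so no other probe bears on it.

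Other subunits of the MSL complex did not pass the test. Msl1, the scaffold, was detected on all 9 arrays and differed by 0.87 ± 0.38 (SE, adjusted p = 0.908), and Msl2, its ubiquitin ligase partner, by 1.16 ± 1.46 (SE, adjusted p = 0.939). Kat8, the acetyltransferase, was at -8.03, -8.84, -8.79 and -10.10 in GFP+RFP+ cells, against -9.12, -6.39, -4.40, -0.04 and -2.73 in GFP-RFP+ cells. It was detected on 0 of 4 and 4 of 5 arrays, and the groups overlapped. The group mean was at least 12.9-fold lower as measured, but Kat8 did not pass the test (difference -4.41 ± 1.92 SE, adjusted p = 0.908).

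At an adjusted p under 0.1 stood 12 genes (0.0582%), Msl3 included, and those named here were picked after their values were seen, as the nearest to the threshold. Paxbp1, a nuclear protein named for binding PAX3 and PAX7, was at -1.18, -2.32, -1.39 and -2.77 in GFP+RFP+ cells, against -5.39, -10.22, -7.54, -11.26 and -11.06 in GFP-RFP+ cells (difference 7.18 ± 1.10 SE, adjusted p = 0.0537). Every GFP+RFP+ array lay above every GFP-RFP+ array, of which 2 had a detected signal.

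Rab2a, a small GTPase of transport between endoplasmic reticulum and Golgi, and Hmgn1, a nucleosome-binding protein, differed through 4 of the 5 GFP-RFP+ arrays. Rab2a was at 1.82, -0.90, -0.61 and -0.62 in GFP+RFP+ cells, against -7.51, -10.09, -1.75, -11.24 and -11.07 in GFP-RFP+ cells (difference 8.26 ± 1.47 SE, adjusted p = 0.0941). Hmgn1 was at 0.92, 1.36, -1.75 and -0.28 in GFP+RFP+ cells, against -9.97, -9.60, -0.84, -10.18 and -9.81 in GFP-RFP+ cells (difference 8.15 ± 1.53 SE, adjusted p = 0.0989). In both, GFP-RFP+ replicate 3 was the high array of its group. For Paxbp1 and Hmgn1 a second probe did not repeat the difference: the second Paxbp1 probe differed by 0.27 and was detected on no RFP+ array, and the second Hmgn1 probe by -3.03 with 2 of 4 and 4 of 5 arrays detected.

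**Figure D2:**
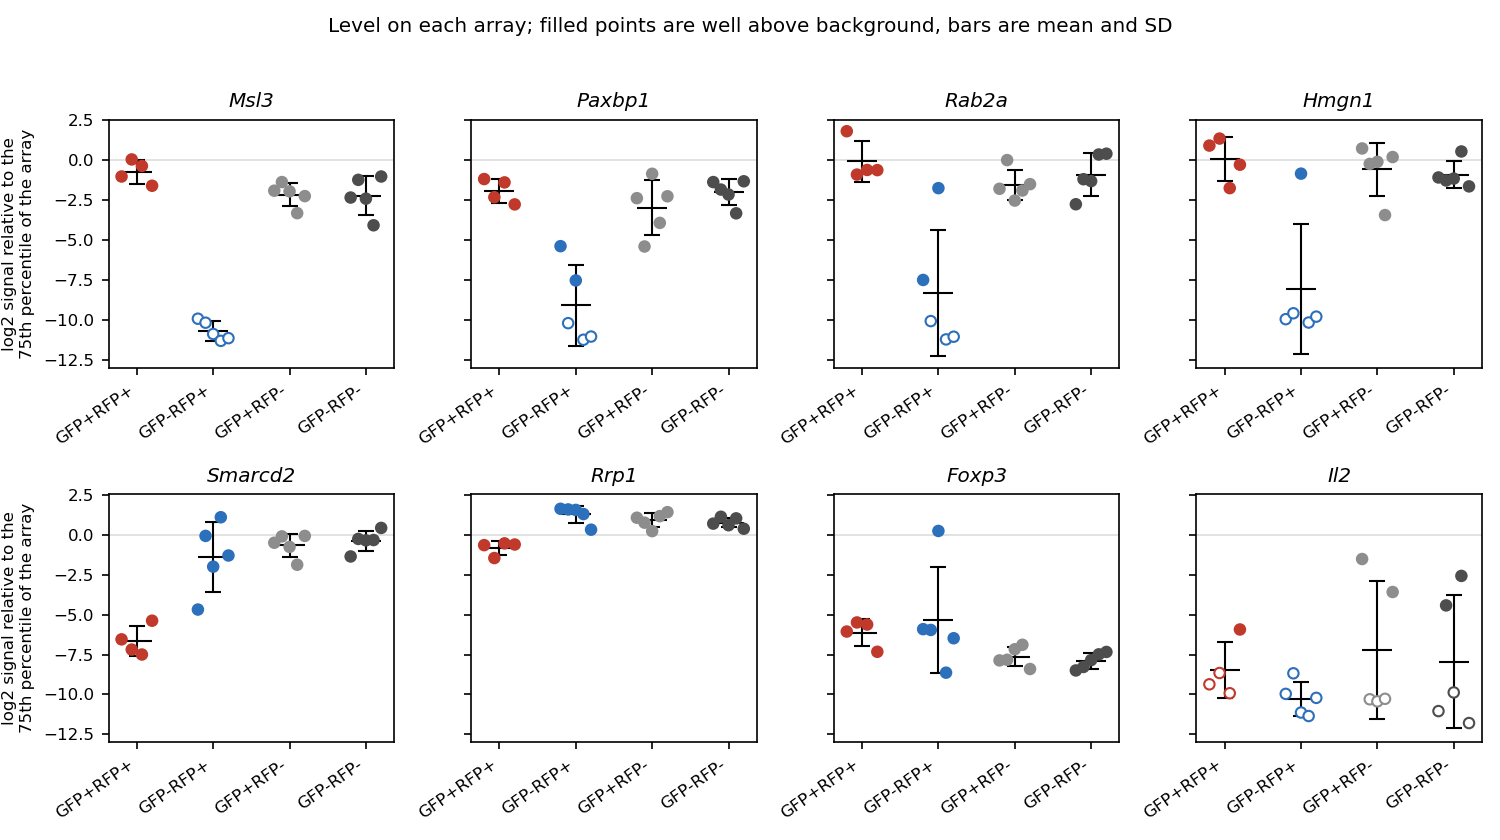
Log2 signal relative to the 75th percentile of the array for 8 genes on all 19 arrays, in the order GFP+RFP+, GFP-RFP+, GFP+RFP-, GFP-RFP-; filled points are well above background and bars are the mean and SD. Msl3 separates the GFP-RFP+ arrays from the other 3 groups, Smarcd2 and Rrp1 separate the GFP+RFP+ arrays, and GFP-RFP+ replicate 3 lies above the rest of its group for Rab2a, Hmgn1 and Foxp3.

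Where a gene was detected on every RFP+ array, neither group was read at background, and 5968 genes were measured in this way. Of these, 241 were higher (4.04%) and 112 lower (1.88%) in GFP+RFP+ cells at an unadjusted p under 0.05, and 0 were called over all genes. Every GFP+RFP+ array lay above every GFP-RFP+ array for 46 of them (0.771%), and below for 29 (0.486%). Over all 20610 genes tested this was so for 168 (0.815%) and 42 (0.204%). The 9 arrays have 126 regroupings, so full separation in either direction has a chance of 0.0159 per gene under relabelling. A lack of overlap thus does not by itself set a gene apart, here or below. Fitted alone with the filter at detection on all 9 RFP+ arrays (6109 genes tested), 2 genes passed the threshold, Smarcd2 and Rrp1, both lower and both at an adjusted p of 0.0212. These calls did not hold throughout: Smarcd2 and Rrp1 stood at 0.957 each with only the RFP+ arrays fitted, at 0.695 and 0.801 with the mean of probes, and at 0.214 and 0.325 with a replicate block (adjusted p, limma).

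Smarcd2, a subunit of the SWI/SNF chromatin remodelling complex, was at -6.55, -7.19, -7.50 and -5.38 in GFP+RFP+ cells, against -4.68, -0.06, -1.99, 1.11 and -1.29 in GFP-RFP+ cells (difference -5.28 ± 0.87 SE, adjusted p = 0.0537 over all genes). Rrp1, a nucleolar protein of ribosomal RNA processing, was at -0.64, -1.45, -0.53 and -0.60 in GFP+RFP+ cells, against 1.64, 1.60, 1.57, 1.31 and 0.33 in GFP-RFP+ cells (difference -2.09 ± 0.39 SE, adjusted p = 0.0989 over all genes). In both genes all GFP+RFP+ arrays lay below all GFP-RFP+ arrays. For Rrp1 the second probe, also detected on all 9 arrays, differed by -1.19. For Smarcd2 the second probe differed by -0.65 and was detected on 2 of 4 and 2 of 5 arrays. In RFP- cells the reporter difference was -0.28 ± 0.82 for Smarcd2 and 0.16 ± 0.37 for Rrp1 (SE), and neither gene passed the test of the difference between the contrasts (-5.00 ± 1.20 SE, adjusted p = 0.574, and -2.26 ± 0.53 SE, adjusted p = 0.546).

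Among genes measured on all 9 arrays, those lower in GFP+RFP+ cells with the next smallest p were Chtf8, Numa1, Gmfg, Dgkz, Oaz1 and Bak1, with adjusted p of 0.332 to 0.619 over all genes. Dgkz, the diacylglycerol kinase that dampens signalling after T cell receptor engagement, was at -4.61, -3.18, -6.94 and -3.06 in GFP+RFP+ cells, against -0.02, -4.44, -1.24, 0.75 and 0.17 in GFP-RFP+ cells (difference -3.49 ± 0.92 SE). Numa1, a mitotic spindle protein, was at -4.93, -3.39, -4.31 and -1.73 in GFP+RFP+ cells, against 0.43, -1.42, -0.90, -1.36 and -0.52 in GFP-RFP+ cells (difference -2.83 ± 0.65 SE). Numa1 did not overlap between the groups, and Dgkz did through GFP-RFP+ replicate 2. Bak1, a pore-forming protein of the mitochondrial death pathway, differed by -4.19 ± 1.18, Chtf8, a sister chromatid cohesion factor, by -3.28 ± 0.74, and Oaz1, the antizyme that turns over ornithine decarboxylase, by -2.96 ± 0.81 (SE). Gmfg, an actin regulator of blood cells, differed by -1.63 ± 0.43 (SE), and by 0.57 when its probes were averaged.

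The genes higher in GFP+RFP+ cells by the same rule were Caly, Dusp15, Pnrc1, Tbc1d12, Dnaja1, Haao, Bpifb6 and Cldn15, with adjusted p of 0.425 to 0.792. Pnrc1, a nuclear receptor coactivator, was at 0.40, 0.17, -0.11 and 0.36 in GFP+RFP+ cells, against -0.69, -7.15, -1.94, -2.85 and -2.21 in GFP-RFP+ cells (difference 3.17 ± 0.88 SE, adjusted p = 0.611). Dnaja1, a co-chaperone of HSP70, was at 0.65, 1.30, 0.14 and 0.20 in GFP+RFP+ cells, against -5.46, -1.06, -0.20, -2.14 and -1.03 in GFP-RFP+ cells (difference 2.55 ± 0.76 SE, adjusted p = 0.721). Neither overlapped between the groups. Caly, Dusp15, Haao and Bpifb6 were dim in both groups, between -8.21 and -1.61 on every array, and differed by 2.97, 2.58, 3.22 and 2.16. Haao, an enzyme of kynurenine breakdown, did not overlap between the groups, as was also so for the phosphatase Dusp15.

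**Figure D3:**
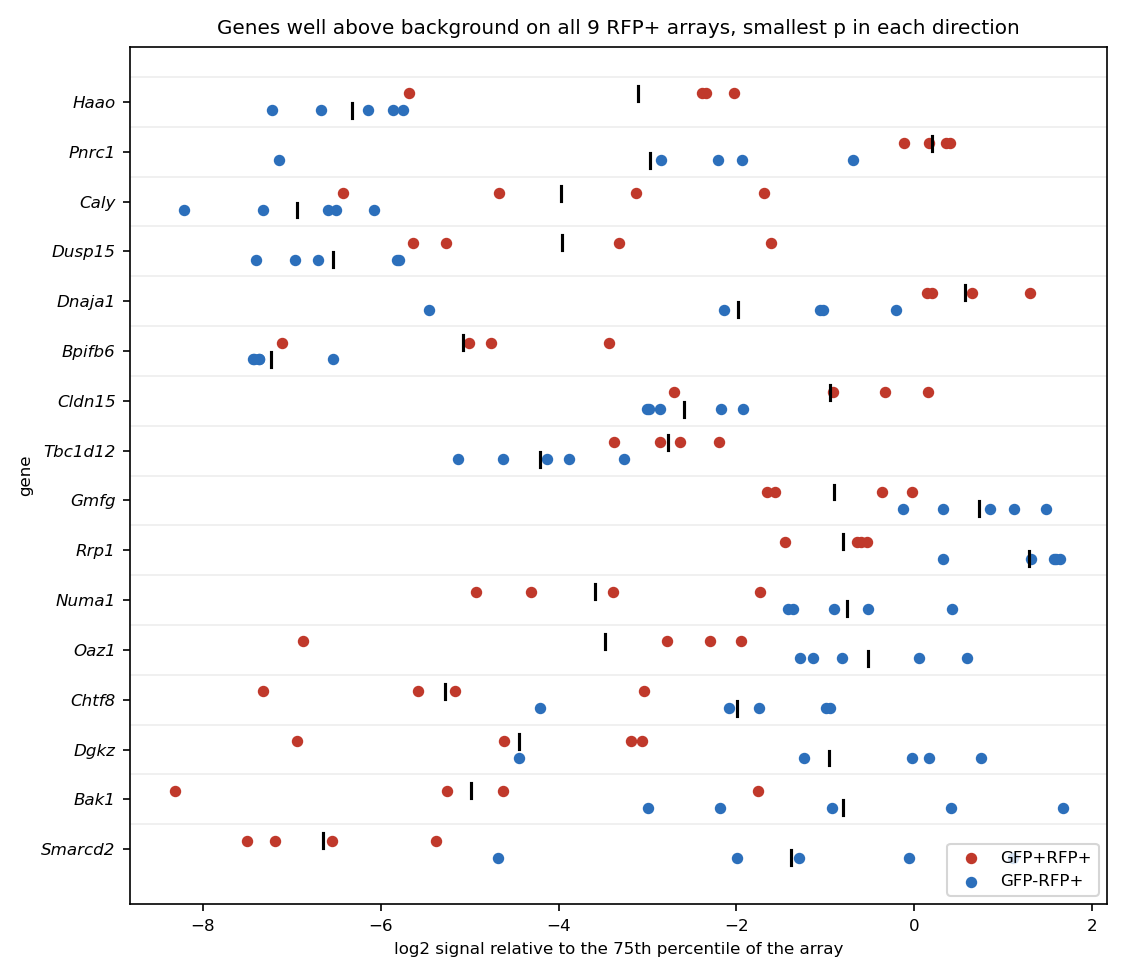
Log2 signal relative to the 75th percentile of the array for the 16 genes with the smallest p, 8 in each direction, among genes detected on all 9 RFP+ arrays; each point is an array and black bars are group means. For Smarcd2, Rrp1, Numa1 and Oaz1 the highest GFP+RFP+ point is below the lowest GFP-RFP+ point, while Pnrc1, Dnaja1, Dusp15 and Haao show the opposite order.

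Without the array of GFP-RFP+ replicate 3, the count of called genes was 20, of which 19 were higher and 1 (Smarcd2) lower in GFP+RFP+ cells. This was the largest count of the 19 fits that each left out 1 array. The adjusted p and folds of that fit, here and below, are those of a fit singled out after its count was seen. All 19 were detected on the 4 GFP+RFP+ arrays, 18 were detected on the array left out, and 12 of the 20 are named here. Hmgn1, undetected on the other 4 GFP-RFP+ arrays, was then at least 354-fold higher (difference 9.96, adjusted p = 1.84e-05), and differences were 9.90 for Rab2a (adjusted p = 5.57e-05) and 7.57 for Paxbp1 (adjusted p = 0.0116). That fit keeps GFP-RFP+ replicates 1 and 4, which had the lowest detection of their group (22.01% and 24.58% of probes). In the fit without arrays under 30% detected, which keeps replicate 3, 9 genes were called. Of the 12 named genes, only Msl3, Smarcd2 and Paxbp1 were among these, and Hmgn1 and Rab2a were not. The median difference of all genes was 0.479 without replicate 3 and 0.0176 without arrays under 30% detected.

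Tardbp, which encodes the RNA-binding protein TDP-43, was at -1.23, -1.96, -0.77 and -3.03 in GFP+RFP+ cells, against -9.72, -7.35, -1.71, -9.05 and -9.99 in GFP-RFP+ cells, and differed by 7.28 without replicate 3 (adjusted p = 8.13e-05) and by 5.81 with it (adjusted p = 0.282). Zc3hav1, the antiviral zinc finger protein that binds CpG-rich RNA, was at -0.69, 0.22, -1.16 and 0.78 in GFP+RFP+ cells, against -6.69, -5.26, -0.10, -9.50 and -7.60 in GFP-RFP+ cells (7.05 without replicate 3, adjusted p = 0.000433, and 5.62 with it, adjusted p = 0.336). In both genes GFP-RFP+ replicate 3 was in the range of the GFP+RFP+ arrays and the other 4 were not. Choosing genes called only without that array favours this order, so the order is no separate result. Snhg5, a small nucleolar RNA host gene, was at -0.22, -2.39, -0.13 and -2.11 in GFP+RFP+ cells, against -9.69, -9.75, 0.09, -11.18 and -11.05 in GFP-RFP+ cells (9.20 without replicate 3, adjusted p = 0.0388, and 7.10 with it, adjusted p = 0.721). It was undetected on the 4 other GFP-RFP+ arrays, so without replicate 3 its level was at least 146-fold higher.

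The other named genes of this refit were H2-T10, a nonclassical MHC class I gene, Zdhhc2, a protein palmitoyltransferase, Ahctf1, a nuclear pore protein that binds chromatin, and Ifi211, an interferon-inducible gene, with differences of 7.05, 6.83, 7.29 and 5.48 without replicate 3. With it their adjusted p were 0.192, 0.378, 0.282 and 0.395. In RFP- cells each of the 12 named genes was detected on 4 or 5 of the 5 arrays of each group. The fit without this array differs in which arrays it holds and in nothing else, and the part of the array's high detection and signal in these calls was not tested.

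**Figure D4:**
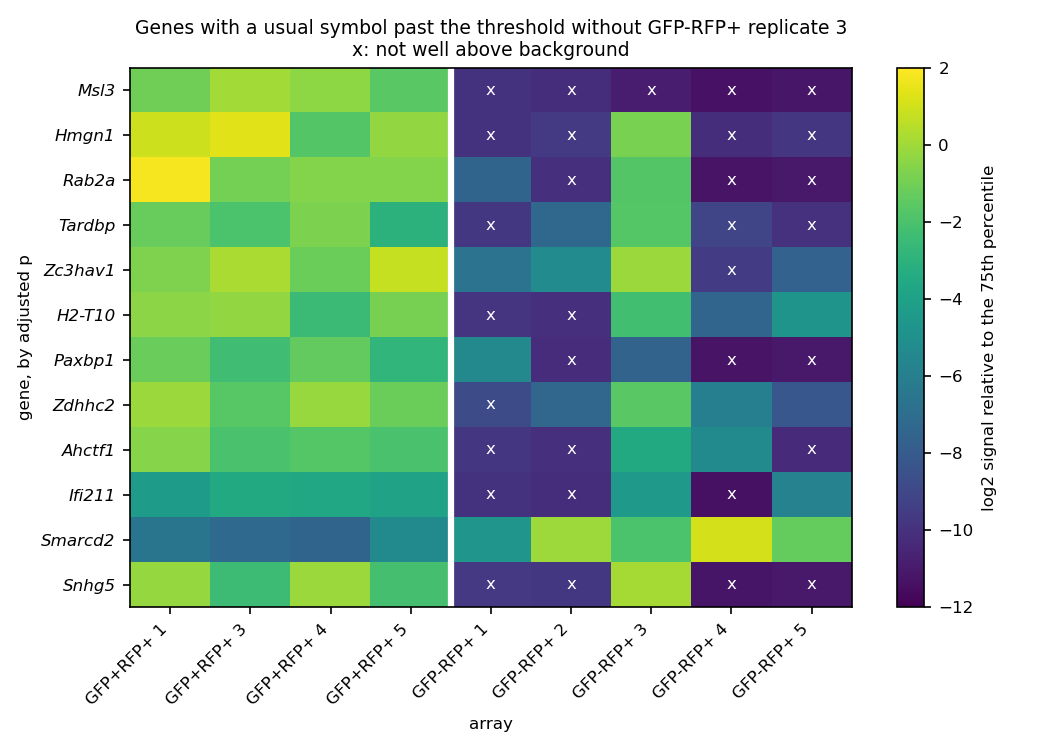
Heat map of log2 signal relative to the 75th percentile for 12 genes with a usual symbol that passed the threshold without GFP-RFP+ replicate 3, on the 4 GFP+RFP+ arrays (left of the white line) and the 5 GFP-RFP+ arrays; x marks signal that was not well above background. Of the 12 genes, 11 are brighter on the GFP+RFP+ arrays, and GFP-RFP+ replicate 3 is bright for most of these but not for Msl3. Choosing genes by this fit favours that order.

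Detection gave a second view of the same contrast. By the 1 probe used for each gene, 9 genes (0.0437%) were detected on every GFP+RFP+ array while undetected throughout GFP-RFP+ cells, and 3 genes (0.0146%) had the opposite pattern. Beside Msl3 the 9 hold Polrmt, the mitochondrial RNA polymerase, Cdc42bpa, a kinase that binds CDC42, Mettl25, Emx2os, Olfr225 and 3 probes without a usual symbol. The 5 named genes were dim in both groups, with the brightest array at -5.29, and with fitted differences of 1.28 to 2.65. Under the set floor their group means were at least 1.84-fold to 3.14-fold higher. Cdc42bpa, Emx2os and Mettl25 overlapped between the groups. Emx2os was at -7.95 on GFP-RFP+ replicate 2, where it was undetected, and at -8.20 and -8.40 on GFP+RFP+ replicates 3 and 5, where it was detected. Polrmt was at -5.79, -7.09, -7.31 and -7.28 in GFP+RFP+ cells, against -8.05, -9.38, -9.43, -10.77 and -9.10 in GFP-RFP+ cells, a level at least 3.09-fold higher (adjusted p = 0.814). Among the genes of the opposite kind, Aasdhppt and Hmga1 were brighter.

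Aasdhppt, which attaches phosphopantetheine to carrier proteins, was at -9.18, -10.31, -10.71 and -10.91 in GFP+RFP+ cells, against -4.32, -5.38, -4.93, -0.35 and -2.67 in GFP-RFP+ cells, at least 26.0-fold lower (adjusted p = 0.386). Hmga1, an architectural chromatin protein, was at -7.71, -8.54, -9.31 and -8.92 in GFP+RFP+ cells, against -3.52, -5.24, -3.82, -3.62 and -8.38 in GFP-RFP+ cells, at least 9.94-fold lower (adjusted p = 0.835). Its groups overlapped through GFP-RFP+ replicate 5, and 2 other Hmga1 probes were detected on all 9 arrays with differences of 1.03 and 0.0061, so the pattern is that of 1 probe of 3. The second Aasdhppt probe was detected on 0 of 4 and 1 of 5 arrays, and the second Emx2os probe on no RFP+ array (difference 0.23). Of 3 further Cdc42bpa probes, 1 was detected on 1 GFP-RFP+ array (difference -0.23), 1 on 1 GFP+RFP+ array (1.72) and the last on none (0.31). None of these genes other than Msl3 passed the test.

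Both reporter genes were measured. Il2 was at -9.37, -8.66, -9.93 and -5.93 in GFP+RFP+ cells, against -9.97, -8.68, -11.14, -11.36 and -10.22 in GFP-RFP+ cells, and was detected on 1 GFP+RFP+ array (replicate 5) and on no GFP-RFP+ array. The groups overlapped and the difference was smaller than its SE (1.81 ± 2.07 SE, adjusted p = 0.933), so no lower bound on a fold is given. In RFP- cells the Il2 signal passed background on 2 of the 5 arrays with GFP and on 2 of the 5 without, so the probe read background on most arrays of each group. Foxp3 was at -6.06, -5.49, -5.62 and -7.33 in GFP+RFP+ cells, against -5.91, -5.96, 0.25, -8.64 and -6.48 in GFP-RFP+ cells, with a difference of -0.78 ± 1.17 (SE, adjusted p = 0.945). Without GFP-RFP+ replicate 3, whose level was the highest of the 9, the Foxp3 difference was 0.62 (adjusted p = 0.928). Foxp3 was detected on every RFP+ array and also on every RFP- array. Its mean level was -6.13 ± 0.84 with GFP and -5.35 ± 3.32 without it, beside -7.64 ± 0.61 and -7.89 ± 0.49 in the GFP+ and GFP- cells that lacked RFP (SD). The RFP- arrays ran from -8.50 to -6.89, a range that held GFP+RFP+ replicate 5, and GFP-RFP+ replicate 4 lay below it.

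Of the 26 genes of a Treg signature list 23 were measured, 0 were called, and 1 was higher and 1 lower at an unadjusted p under 0.05. Counts of this kind, here and in the lists below, stand beside 4.25% higher and 1.16% lower among all genes. The median difference of the list lay -0.00237 from the median of all genes. Gpr83, an orphan receptor of Treg, was at -9.33, -10.72, -10.89 and -11.14 in GFP+RFP+ cells, against -9.95, -2.39, -2.69, -1.71 and -7.48 in GFP-RFP+ cells. It was detected on 0 of 4 and 4 of 5 arrays and overlapped only through GFP-RFP+ replicate 1, and the level was at least 10.5-fold lower (difference -5.68 ± 1.56 SE, adjusted p = 0.611). Swap70, a guanine nucleotide exchange factor, differed by 1.82 ± 0.71 (SE, adjusted p = 0.817). Ctla4, an inhibitory receptor, differed by 3.22 ± 2.10 with 3 of 4 and 3 of 5 arrays detected, Ikzf2, which encodes Helios, by 2.43 ± 2.29 with 2 of 4 and 2 of 5, and Tnfrsf18, which encodes GITR, by -0.55 ± 1.64 with 3 of 4 and 4 of 5 (SE). These 3 markers were thus detected on only some arrays of each group.

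Genes that Foxp3 is known to repress were a list of 14, with 13 measured, 0 called and a median 0.54 above that of all genes, or 0.28 to 0.57 above under other scalings. The 3 detected on all 9 arrays lay the other way, with a median difference of -0.16, against 0.35 for all genes so detected. Lef1, a transcription factor of naive T cells, was at -0.19, -1.95, 0.78 and 1.01 in GFP+RFP+ cells, against -2.19, -7.94, -1.64, 1.24 and -8.93 in GFP-RFP+ cells (difference 3.80 ± 1.53 SE, adjusted p = 0.86). The groups overlapped, with GFP-RFP+ replicate 4 the highest of the 9, and the second Lef1 probe differed by -0.047. Of the 25 measured genes of Foxp3 partners, the 9 of suppressive molecules, the 12 of IL-2 and other cytokines and the 8 of the IL-2 receptor and common gamma-chain receptors, none stood at an unadjusted p under 0.05.

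The IL-2 receptor chains gave no call. Il2ra, the alpha chain CD25, had a detected signal on 2 of 4 GFP+RFP+ arrays, against 1 of 5 GFP-RFP+ arrays, and differed by 2.75 ± 1.96 (SE, adjusted p = 0.929). Il2rb, the beta chain, was detected on all 9 arrays and differed by 1.00 ± 0.95, and Il2rg, the common gamma chain, by -1.95 ± 3.1 (SE, adjusted p = 0.929 and 0.948). Downstream of the receptor, the JAK, STAT5 and SOCS list had 18 genes measured, 0 called, 2 higher at an unadjusted p under 0.05 and a median 0.00237 from that of all genes. Ptpn6, the phosphatase SHP-1, was at 0.37, -1.53, 2.18 and 1.34 in GFP+RFP+ cells, against -9.91, -10.09, -0.03, -6.65 and 2.40 in GFP-RFP+ cells (difference 5.44 ± 1.95 SE, adjusted p = 0.801). Stat5a, a transcription factor activated by IL-2, was detected on 2 of 4 and 0 of 5 arrays. Its group mean, undetected arrays included, was at least 4.89-fold higher as measured (difference 4.55 ± 1.88 SE, adjusted p = 0.891).

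The T cell receptor list, which holds the receptor chains and their first kinases and adaptors, had 28 genes measured, with 0 called and 3 in each direction at an unadjusted p under 0.05. Cd3d, a chain of the receptor complex, was at -0.60, 1.84, 1.90 and -0.99 in GFP+RFP+ cells, against 2.04, 3.40, 1.93, 2.68 and 2.24 in GFP-RFP+ cells (difference -1.92 ± 0.58 SE, adjusted p = 0.721). The groups did not overlap, though 2 GFP+RFP+ arrays came within 0.1 of the lowest GFP-RFP+ array. Rasgrp1, which activates RAS after receptor engagement, was at -1.68, -10.53, -3.77 and -2.77 in GFP+RFP+ cells and undetected on all GFP-RFP+ arrays, between -11.24 and -9.94 (at least 14.0-fold higher, difference 6.03 ± 1.71 SE, adjusted p = 0.633). It was detected on 3 of 4 GFP+RFP+ arrays, and the groups overlapped. The median of the list was 0.58 below that of all genes as scaled here and 0.13 below at the least under another scaling.

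Genes induced within minutes to hours of T cell activation, the immediate early genes, had 21 members measured, 0 called, and 14 of 21 below zero difference, against 6357 of all 20610 genes. Such sign counts went with the scaling, as the median difference of all genes was 0.41 here and between -0.0486 and -0.00146 under other scalings. Their median was 1.04 below that of all genes (0.59 to 1.31 below under other scalings), and 3 of them were detected on all 9 arrays. Jund, a subunit of AP-1, was at -2.65, -2.90, -3.14 and -1.39 in GFP+RFP+ cells, against -2.97, 0.01, -0.72, -0.74 and -0.20 in GFP-RFP+ cells (difference -1.60 ± 0.55 SE, adjusted p = 0.793). Btg2, an antiproliferative gene, lay the other way, at -2.34, -0.12, -2.21 and -8.06 in GFP+RFP+ cells, against -9.78, -3.02, -4.45, -10.51 and -9.25 in GFP-RFP+ cells (difference 4.22 ± 1.54 SE, adjusted p = 0.814). Both overlapped between the groups. NFAT and NF-kappaB factors, which carry the same signal to the Il2 promoter, had 20 genes measured, 0 called, 0 at an unadjusted p under 0.05 and a median 0.69 below that of all genes, or 0.31 below at the least under another scaling.

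Among costimulators (14 measured), effector-memory genes (18), chemokine receptors (11) and cell cycle genes (23), no gene was called or stood at an unadjusted p under 0.05. Co-inhibition and anergy genes had 17 measured and a median 0.97 above that of all genes (0.52 at the least under another scaling), with Tox, a nuclear factor of chronically stimulated T cells, at a difference of 4.69 ± 2.09 (SE, adjusted p = 0.91). Among naive and homing genes Ly6c1, a surface marker of memory and circulating T cells, was at -0.96, -8.46, -8.38 and -1.95 in GFP+RFP+ cells, against 0.23, 0.28, -0.67, -4.19 and -0.66 in GFP-RFP+ cells (difference -3.93 ± 1.35 SE, adjusted p = 0.793). Among 19 T helper lineage factors Maf, which drives IL-10 and IL-4, was at -3.14, -9.60, -6.24 and -4.94 in GFP+RFP+ cells, against -2.76, -1.15, -1.63, -0.47 and -4.64 in GFP-RFP+ cells (difference -3.85 ± 1.03 SE, adjusted p = 0.568). Ly6c1 and Maf overlapped between the groups. Xaf1, an interferon-induced partner of XIAP, differed by 4.88 ± 1.57 (SE, adjusted p = 0.761), and it was the single one of 19 interferon-stimulated genes at an unadjusted p under 0.05.

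Lists of metabolism and growth signalling had 0 called genes each, and differences between lists were not tested. Glycolysis and glucose uptake genes (17 measured) had a median 0.96 below that of all genes, mTOR and FOXO pathway genes (21) 1.16 below, and survival and death genes (22) 0.91 below, and citrate cycle genes (22) had a median 0.57 above it. Under other scalings these distances were as small as 0.30, 0.51, 0.59 and 0.32, and glycolysis took the other side in 3 of 43 alternatives. The 7 survival and death genes detected on all 9 arrays had a median difference of 0.27, near the 0.35 of all genes so detected, and 1 mTOR and FOXO gene was so detected. Aldoa, a glycolytic aldolase, was at 1.67, 2.30, 1.36 and 1.74 in GFP+RFP+ cells, against 3.59, 3.44, 2.46, 2.75 and 2.42 in GFP-RFP+ cells, without overlap (difference -1.17 ± 0.35 SE, adjusted p = 0.721). The probe named for Pgk1, a later enzyme of glycolysis, differed by 5.94 ± 2.48 (SE, adjusted p = 0.891), but it lies on chromosome 3 in the files whereas RefSeq has the gene on chromosome X, so it may not read that gene. Tsc2, which restrains mTOR complex 1, was at -6.55, -7.57, -6.46 and -8.98 in GFP+RFP+ cells, against -0.27, -6.42, -2.0, -8.19 and 0.56 in GFP-RFP+ cells (difference -4.12 ± 1.79 SE, adjusted p = 0.908). Dlst, an enzyme of the citrate cycle, differed by -7.55 ± 2.88 and Mdh1, the cytosolic malate dehydrogenase, by 2.01 ± 0.87 (SE, adjusted p = 0.814 and 0.908).

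Cytosolic ribosomal proteins were the group measured best, with 77 of 84 genes detected on all 9 arrays. None was called, 0 were higher and 7 lower at an unadjusted p under 0.05, and their median was -0.08, which is 0.49 below that of all genes as scaled here and 0.15 below at the least under another scaling. Rpl10a was at -1.26, 0.89, 1.5 and -2.86 in GFP+RFP+ cells, against 1.93, 3.03, 1.17, 1.16 and 1.90 in GFP-RFP+ cells (difference -2.27 ± 0.71 SE, adjusted p = 0.724), and Rpl41 differed by -1.29. Both overlapped between the groups. Translation initiation factors (49 measured) had a median 0.51 above that of all genes. At an unadjusted p under 0.05 stood 4 as higher and 0 as lower, beside 4.25% and 1.16% of all genes. Eif1b was at -0.10, -0.83, -7.91 and -0.35 in GFP+RFP+ cells, against -9.73, -7.40, -1.56, -11.19 and -8.88 in GFP-RFP+ cells (difference 5.46 ± 1.69 SE, adjusted p = 0.721). Eif3i and Eif3g, subunits of the initiation factor eIF3, differed by 4.06 and 3.52.

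The mitochondrial lists were mixed. Their counts stand beside 4.25% of all genes higher and 1.16% lower at an unadjusted p under 0.05. Respiratory chain and ATP synthase genes (82 measured) had 2 higher and 1 lower at an unadjusted p under 0.05. Among them were Ndufv1, a complex I subunit, at 3.06 ± 1.22, and Atp5c1, a subunit of ATP synthase, at -3.93 ± 1.24 (SE). Ndufv1 was undetected in GFP-RFP+ cells, and its GFP+RFP+ mean was at least 1.86-fold higher. That mean includes background readings of -9.37 and -10.65 on GFP+RFP+ replicates 1 and 3. Only replicates 4 and 5 rose above background, beside 1 RFP- array with GFP and 1 without. Without replicates 4 and 5 the gene would not have met the filter of at least 4 arrays. Mitochondrial ribosomal proteins (72 measured) had 4 higher and 1 lower, among them Mrps33 at 5.67, Mrpl40 at 4.88 and Mrps12 at -5.25, with Mrps12 undetected on all 4 GFP+RFP+ arrays and at least 8.9-fold lower. Mitochondrial import genes (26 measured) had 1 higher and 2 lower, with Timm44 at 5.46, Timm13 at -6.82 and Tomm20 at -3.91. The Mrps12 fold includes background readings of -9.94 and -8.27 on GFP-RFP+ replicates 1 and 2. Adjusted p of these 8 genes ranged from 0.727 to 0.905.

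Nuclear and protein-turnover lists had no called gene, and their counts at an unadjusted p under 0.05 stand beside the same shares of all genes, 4.25% and 1.16%. Spliceosome factors (76 measured) had 3 higher, Hnrnpr (undetected in GFP-RFP+ cells, at least 10.4-fold higher), Lsm8 and 1 more, and 1 lower, Lsm4, which was at -8.45, -9.16, -0.81 and -10.99 in GFP+RFP+ cells, against -0.36, 0.12, -1.95, -1.27 and -0.94 in GFP-RFP+ cells (difference -6.48 ± 1.72 SE, adjusted p = 0.568). A single GFP+RFP+ array, replicate 4, overlapped with the GFP-RFP+ arrays. The Hnrnpr fold includes a background reading of -10.7 on GFP+RFP+ replicate 4. The Kdm6a fold below includes a background reading of -10.57 on GFP+RFP+ replicate 3. Nuclear pore and transport genes (45 measured) had 3 higher, which were Nup214, Nup107 and Ranbp10, and proteasome genes (48 measured) 1, Psmd11, at an unadjusted p under 0.05. Nup107, a scaffold protein of the pore, was at -1.81, -1.09, -0.61 and -1.81 in GFP+RFP+ cells, against -3.92, -2.39, -1.96, -2.35 and -2.61 in GFP-RFP+ cells, without overlap (difference 1.32 ± 0.56 SE, adjusted p = 0.899). Histone modifiers (60 measured) had 1 higher, the demethylase Kdm6a (undetected in GFP-RFP+ cells, at least 7.87-fold higher), and 2 lower, Kat8 and Kdm2a, a histone H3 lysine demethylase of CpG islands, which was at -7.19, -8.52, -7.60 and -7.38 in GFP+RFP+ cells, against 0.01, -6.50, -2.86, -1.04 and -4.95 in GFP-RFP+ cells, without overlap (difference -4.60 ± 1.27 SE, adjusted p = 0.611).

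In the remaining lists, Itgb2, the integrin beta-2 chain, differed by 6.25 ± 1.83 and Rhoa, a GTPase of the cytoskeleton, by -1.96 ± 0.81 among 24 actin and migration genes. Prkacb and Prkar1a, a catalytic and a regulatory subunit of protein kinase A, differed by 4.54 and -2.03 among 17 adenosine and cyclic AMP genes, and Ube2q2 by -5.89 among 38 ubiquitin-conjugating enzymes. The adjusted p of these 5 genes were between 0.714 and 0.898. Second probes went the other way for Rhoa, at 1.40 with 4 of 4 and 4 of 5 arrays detected, and for Prkar1a, at 1.13 with 3 of 4 and 2 of 5. For Prkacb the second probe differed by 1.74 with 4 of 4 and 4 of 5 arrays detected, beside 3 of 4 and 1 of 5 for the probe used. That of Ube2q2 differed by -1.11 with 0 of 4 and 1 of 5.

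**Figure D5:**
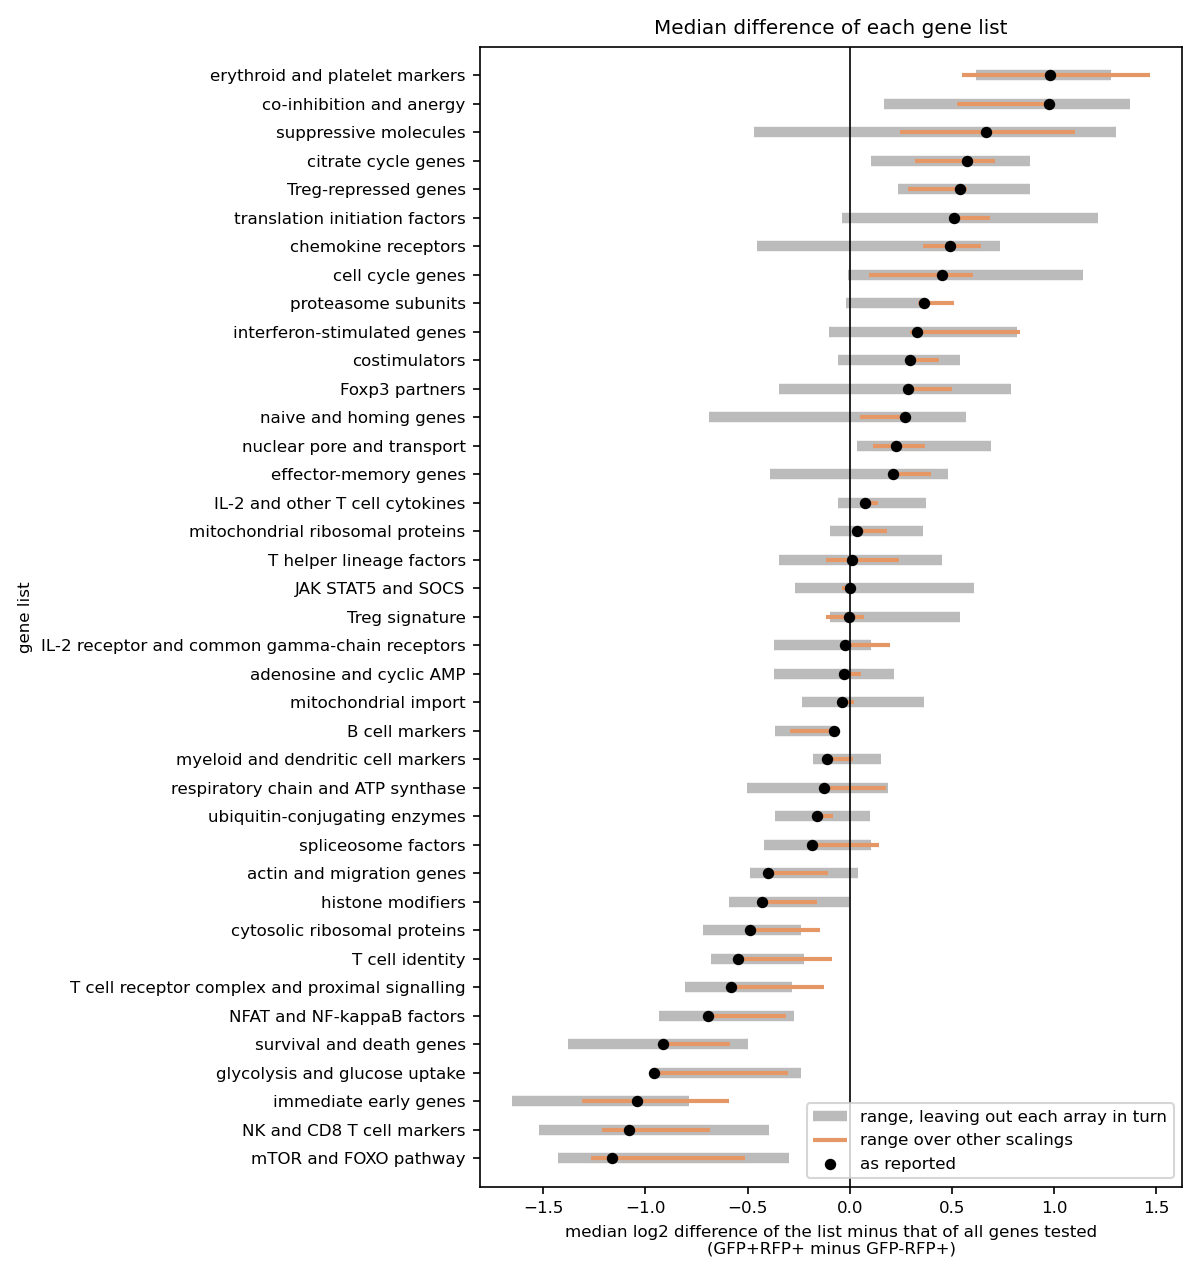
Median log2 difference (GFP+RFP+ minus GFP-RFP+) of each of 39 gene lists minus the median of all genes tested; black points are the values as reported, orange lines the range over other scalings and grey bars the range when each array is left out in turn. Immediate early, NFAT and NF-kappaB, T cell receptor, glycolysis, mTOR and FOXO, survival and death and cytosolic ribosomal genes stay below 0 over both ranges, and citrate cycle, co-inhibition and Treg-repressed genes stay above it. T cell identity, NK and CD8 and B cell markers also stay below 0, and erythroid and platelet markers above.

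Markers of other cells were looked at in the same arrays. T cell identity genes were detected at 9 to 12 of 12 per array in each group, with Cd4 on all 9 arrays. B cell markers were detected at 8 of 12 on every GFP+RFP+ array and at 4 to 11 on GFP-RFP+ arrays, myeloid and dendritic cell markers at 7 to 10 and 6 to 10 of 13, NK and CD8 T cell markers at 2 to 5 and 3 to 5 of 9, and erythroid and platelet markers at 2 to 3 and 1 to 3 of 4. The log2 of the summed B cell signal ran from 0.69 to 1.91 in GFP+RFP+ cells and from -2.37 to 2.32 in GFP-RFP+ cells, and that of the myeloid signal from 4.16 to 5.16 and from 3.64 to 4.74. For T cell identity genes it ran from 3.42 to 3.90 and from 3.84 to 4.62, below the myeloid sum on every GFP+RFP+ array. The lists hold different probes, so their sums do not give shares of cells. Set against all genes, the list medians were -1.08 for NK and CD8 T cell, -0.08 for B cell, -0.11 for myeloid and dendritic cell, 0.98 for erythroid and platelet and -0.55 for T cell identity genes, so the NK and CD8 and the erythroid and platelet lists, of 9 and 4 genes, lay at distances like those of the lists above. No gene of the 4 lists of other cells stood at an unadjusted p under 0.05, and the part of such cells in any difference above was not tested. In sorted bulk samples, fewer cells with a transcript and less transcript per cell cannot be told apart.

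The reporter difference of RFP+ cells and that of RFP- cells were compared gene by gene, and 2 genes passed the test (0.0097%). Beside Msl3 this was Coq10a, a coenzyme Q chaperone, named here because the count is small. It differed by 0.86 ± 0.60 (SE, adjusted p = 0.929) between GFP+RFP+ and GFP-RFP+ cells and by -9.60 ± 0.56 between GFP+RFP- and GFP-RFP- cells, so that its call comes from the RFP- cells. Of the genes detected on all 9 RFP+ arrays and named above, Chtf8, Gmfg, Pnrc1, Caly, Haao, Dusp15 and Bak1 had adjusted p of 0.849 to 0.999 in this comparison.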

How the data were processed

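Messenger RNA of sorted cells was amplified by a global PCR of cDNA and labelled with Cy3, 1 sample to an array, per the labels' protocols, and amplification can move levels of rare transcripts. The intensity values deposited by the authors are processed signals of Agilent Feature Extraction 10.7.3.1, background-subtracted and detrended within each array, per the file headers. The log2 values of the series table deposited by the authors are on a common scale, by a method not given in the sources used here, and served as an alternative. Each array has 62976 spots, of which 3671 controls were left out, as were 3296 spots marked as outliers over all arrays, and no spot was saturated. The other spots carry 55681 probes, of which 27312 were named through RefSeq accessions (GRCm38.p6 table, names only) and 28369 as in the files.

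Signal was divided by the 75th percentile of the 6610 probes that every one of the 19 arrays detected and put on the log2 scale. Probes detected on at least 4 arrays were kept, with 1 probe per gene, that of the highest mean, which left 20610 genes. All 19 arrays entered 1 limma fit (limma 3.58.1, R 4.3.3), with calls at an adjusted p (Benjamini-Hochberg) under 0.05, and its script was tested on simulated data. Where a probe was not above background on a whole group, the fold is a lower bound under a set floor. It is the bright group's mean against, per array, the higher of the lowest detected signal and the probe's own. The lowest detected signal is that of any probe on the array, and a higher floor gives a smaller fold. The bound allows neither for the spread among arrays nor for undetected arrays of the bright group. Genes were named by rule: Foxp3 and Il2, called genes, the 8 per direction with the smallest p among genes detected on all 9 RFP+ arrays, and up to 3 genes per list at an unadjusted p under 0.05. The groups, gene lists and rules were chosen with earlier results of these data known. Some genes that meet these rules are not reported here. Genes near the threshold, of the detection pattern, of the MSL complex and of the fit without 1 array were named after their values were seen. Slides 1 to 3 and scan days 1 to 3 of the file headers were treated as batches. The number of arrays limits the precision. Alternatives were other scalings, filters, blocks and left-out arrays.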

Additional observations from a re-analysis of the deposited data

Results flagged for a closer look

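Within each RFP+ group, the highest and the lowest array of each of the 75 named genes and of both array measures were compared with the rest. Of 154 groups in all, 22 had a gap to the next array that took up an unusually large share of the range. The cutoff is one that about 1 in 20 groups of normally distributed values would pass. Many named genes mix detected and background arrays and were picked from the same data, so the 22 cannot be set against that rate. GFP+RFP+ replicate 1 was the stray array in 5 of these and GFP-RFP+ replicate 3 in 5. Replicate 1 was the highest GFP+RFP+ array for Rab2a (gap of 0.893 of the range), Olfr225 (0.885) and Polrmt (0.855), and the lowest for Haao (0.901) and Mrps33 (0.836). GFP+RFP+ replicate 3 was the lowest for Rrp1 (0.88) and the highest for Dlst (0.848), and replicate 4 the lowest for Oaz1 (0.832), Eif1b (0.907) and Pgk1 (0.847). GFP-RFP+ replicate 3 was the highest array of its group for Hmgn1 (0.938), Eif3i (0.883), Pgk1 (0.871), Lsm8 (0.731) and Psmd11 (0.728). Among the other GFP-RFP+ arrays, replicate 2 was the highest for Bpifb6 (0.922) and the lowest for Ube2q2 (0.725), replicate 5 the highest for Timm44 (0.765) and the lowest for Rrp1 (0.748), replicate 1 the lowest for Tomm20 (0.864) and Jund (0.748), and replicate 4 the lowest for Ly6c1 (0.787).

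Msl3 differed between the 2 reporter contrasts, with a difference of RFP+ cells minus that of RFP- cells of 9.915 on the log2 scale (limma, adjusted p = 1.26e-05). It was higher on all 4 GFP+RFP+ arrays than on any GFP-RFP+ array, and the groups without RFP overlapped.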

How the results depend on the processing

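Msl3 was called in 36 of 43 alternatives, at 6.32 to 10.51 on the log2 scale outside left-out arrays and at 9.71 to 10.26 when an array was left out. It was not called within single slides or scan days, where 0 genes were called and 927 to 1917 stood at an unadjusted p under 0.05, and could not be tested where a probe had to be detected on all 9 RFP+ arrays. The count of called genes moved with the processing: 11 with the percentile over all probes, 5 with median centring, 2 with quantile normalization, 6 with normexp, 2 with the authors' series table, 2 with detection required on all 9 RFP+ arrays and 6 with detection on at least 4 of them, 6 with the mean of probes, 2 with slide as a block, 3 with only the RFP+ arrays, 6 with a trended robust prior, 3 with percent detected as a covariate and 9 without arrays under 30% detected. Settings chosen after seeing the data gave 3 with scan day as a block and 16 with a common floor. Leaving out each array in turn gave 1 to 20 called genes, with 20 without GFP-RFP+ replicate 3, 8 without GFP+RFP- replicate 4, 6 without GFP-RFP+ replicate 5 and 5 without GFP+RFP+ replicate 4. For the difference between contrasts the count was 4 without arrays under 30% detected and 2 to 13 with an array left out, 13 being without GFP-RFP+ replicate 3. The causes were not tested.

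With the replicate number as a replicate block, 1 gene was called, as without it. Same-numbered RFP+ arrays did not deviate together (r of 0.033, -0.106, -0.027 and 0.022 for numbers 1, 3, 4 and 5), so the numbers were not taken as pairs.

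Signs turned for genes that were not called, mostly within single batches of 1 or 2 arrays a group. Within slide 1 this was Mdh1 (-0.37). Within slide 2 it was Foxp3 (0.34), Il2 (-1.25), Cdc42bpa (-0.20), Eif1b (-0.50), Bpifb6 (-0.57), Hnrnpr (-0.55), Nup214 (-1.64), Ube2q2 (6.45), Stat5a (-0.55) and Pgk1 (-0.29). Within slide 3 it was Foxp3 (0.23), Xaf1 (-2.46), Ly6c1 (0.47), Eif3i (-0.31), Prkacb (-1.33) and Eif3g (-1.94). Within scan day 1 it was Rasgrp1 (-0.043), Ndufv1 (-0.085), Lef1 (-0.032) and Kdm6a (-0.11). Within scan day 2 it was Foxp3 (0.59), Il2 (-0.47), Caly (-0.13), Bpifb6 (-0.15), Hnrnpr (-0.13), Nup214 (-0.32), Ube2q2 (1.19), Stat5a (-0.10) and Prkar1a (0.063). Within scan day 3 it was Foxp3 (1.95), Ly6c1 (2.73), Prkacb (-2.18), Lef1 (-0.84) and Tsc2 (0.42). Gmfg turned to 0.57 with the mean of probes, and Hmga1 to 0.0061 where detection on all 9 RFP+ arrays chose another probe. Leaving out an array turned Foxp3, whose difference ran from -1.61 to 0.62. List medians are set against all genes because scaling moves both, and the low share of detected probes limits every gene near background.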
